A study of Mus musculus with 4 samples.

Results

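Bile acids are made in hepatocytes from cholesterol, and the 10 genes described here encode the enzymes of that synthesis and the nuclear receptor pair that restrains it. They were chosen by name, as Cyp7a1, Cyp8b1, Cyp27a1, Cyp7b1, Hsd3b7, Akr1d1, Slc27a5, Baat, Nr1h4 and Nr0b2, and each had 1 row among the 54532 genes of the count table. Messenger RNA was sequenced from livers of C57BL/6 mice, a common inbred strain. The libraries HFD 334 and HFD 335 came from mice labelled HFD, letters commonly used for a high-fat diet. The libraries I3A 303 and I3A 305 came from mice given I3A together with HFD, and the labels spell out neither abbreviation. HFD is thus shared by all 4 libraries, no liver without it was analysed here, and neither age, sex, dose nor duration is stated. The labels do not say that the libraries of a group come from separate animals, so tests measure the spread between these libraries, which may be technical.

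In the classic pathway, Cyp7a1 adds a hydroxyl group to the cholesterol ring and sets the pace of synthesis, and Cyp8b1 adds the hydroxyl group that makes cholic acid. The alternative pathway starts on the side chain with the mitochondrial enzyme Cyp27a1 and continues with Cyp7b1, although Cyp27a1 also acts on the side chain in the classic pathway. Hsd3b7 and Akr1d1 then reshape the ring for both pathways, and Slc27a5 and Baat attach coenzyme A and then taurine or glycine. Bile acids returning to the liver bind FXR, the product of Nr1h4, which induces Nr0b2, and the Nr0b2 protein SHP is known to lower transcription of Cyp7a1 and Cyp8b1 by binding the receptors LRH-1 (Nr5a2) and HNF4 (Hnf4a).

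The libraries held 15005668 to 18255623 counts. Values are CPM, read counts divided by a library size scaled by the TMM method, under which 1 count is worth 0.0581 to 0.0651 CPM. Of the 54532 genes 13403 had enough counts for the test, among them 9 of the 10 members. HFD 335 carried transcripts of other tissues: 8 skeletal muscle genes summed to 775 CPM of the library total there and to 0.447 to 0.876 CPM in the other libraries, and 7 of the 8 had counts. For 8 exocrine pancreas genes the sum was 123 CPM, and 0.533 to 1.86 CPM in the other libraries. Smooth muscle and mesothelium genes summed to 172 CPM in HFD 335 and to 4.22 to 5.88 CPM in the others, and erythroid genes to 324 CPM in HFD 335 and to 151 to 192 CPM in the others. Stellate cell genes summed to 396 CPM in HFD 335, 145 CPM in HFD 334, 177 CPM in I3A 303 and 52.9 CPM in I3A 305. Des counts in both the stellate and the smooth muscle sums. In TMM-scaled CPM it measured 105 in HFD 335, 4.03 in HFD 334, 3.28 in I3A 303 and 2.27 in I3A 305. I3A 305 was also low in endothelial genes, at 52.4 CPM beside 134 to 234 CPM in the other libraries. Kupffer cell genes summed to 143 and 134 CPM in HFD and 172 and 156 CPM in I3A libraries. Sums of bile duct genes (55.1 to 89.6 CPM) and intestinal genes (131 to 154 CPM) overlapped between the groups. Fabp2 (1794 to 2240 counts) made up most of the intestinal sum, whereas Fabp6, Cdx1, Cdx2 and Lct had 0 counts in every library. The Kupffer cell, endothelial, erythroid and hepatocyte sums did not overlap between the groups. Single genes did not all follow their sum. In TMM-scaled CPM, Hbb-bs overlapped (54.1 and 135 in HFD, 60.3 and 55.6 in I3A libraries). Alas2 was lower with I3A (83.9 and 65.9 beside 57.2 and 53.9). Alb overlapped (52725 and 54145 beside 57566 and 52543). Ttr was lower (4098 and 3575 beside 3409 and 3052) and Cps1 higher (2538 and 2770 beside 4642 and 7102). The 9 hepatocyte markers found in the table had counts in every library and summed to 88735 and 90154 CPM in HFD and 93694 and 92360 CPM in I3A libraries. The part of these differences in the results was not tested. Values without single libraries are given for some members and for the pathway ratios, and not for single genes outside the members. In whole liver, fewer cells of a type and less RNA per cell cannot be told apart.

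Both enzymes particular to the classic pathway measured higher with I3A. Cyp7a1 (chromosome 4, 6265612 to 6275633, minus strand, GRCm38) measured 53.0 CPM in HFD 334 and 101 CPM in HFD 335, then 321 CPM in I3A 303 and 250 CPM in I3A 305. The groups did not overlap, although the HFD libraries themselves lay 1.91-fold apart, and the lower I3A library stood 2.47-fold above the higher HFD library. Group means were 77.1 ± 34.1 CPM and 286 ± 50.3 CPM (SD, n = 2), a fitted 3.70-fold difference with a 95% interval of 2.13-fold to 6.42-fold. It did not pass adjustment over all genes in edgeR's quasi-likelihood test (adjusted p = 0.176). The log2 fold change was 1.51 without HFD 334 and 2.43 without HFD 335, and 1.71 without I3A 303 and 2.05 without I3A 305. Each of these 4 fits keeps a single library in the group that lost one. The gap between that group's libraries, 1.91-fold in HFD, is then not part of the spread. Calls from these fits therefore cannot show that the Cyp7a1 difference is robust. Over all genes those 4 fits called 2.36% (without HFD 334), 0.152% (without HFD 335), 0.298% (without I3A 303) and 0% (without I3A 305).

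Cyp8b1 (chromosome 9, 121914356 to 121916305, minus strand), a gene of 1 exon, varied less within the groups. It measured 497 CPM in HFD 334, 525 CPM in HFD 335, 995 CPM in I3A 303 and 998 CPM in I3A 305. Each I3A library therefore held between 1.89 and 2.01 times the level of each HFD library, while libraries of 1 group differed 1.06-fold or less. The log2 fold change was 0.96 ± 0.11 (SE), which ranked the gene 12th of 13403 by p, yet the edgeR adjusted p was 0.145. With single libraries left out the log2 fold change stayed between 0.937 and 1.004.

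No gene passed an edgeR adjusted p of 0.05 among the 13403 (0%), so none is described below as changed in that test. DESeq2, a second count test, called both Cyp7a1 (adjusted p = 0.00693) and Cyp8b1 (adjusted p = 3.10e-12). DESeq2 called 335 genes over the table (2.5%), 181 of them higher with I3A (1.35%) and 154 lower (1.15%), and none of the other 7 tested members. limma-voom called 0 genes (0%), with adjusted p = 0.172 for Cyp7a1 and 0.144 for Cyp8b1. At an unadjusted p under 0.05 in edgeR stood 3 of the 9 tested members, Cyp7a1, Cyp8b1 and Baat, all higher, beside 1729 (12.9%) of all tested genes in either direction and 6.66% in the higher direction. The groups did not overlap for 5 of the 9, all higher, beside 45.5% of tested genes in either direction and 23.1% in the higher direction.

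**Figure D1:**
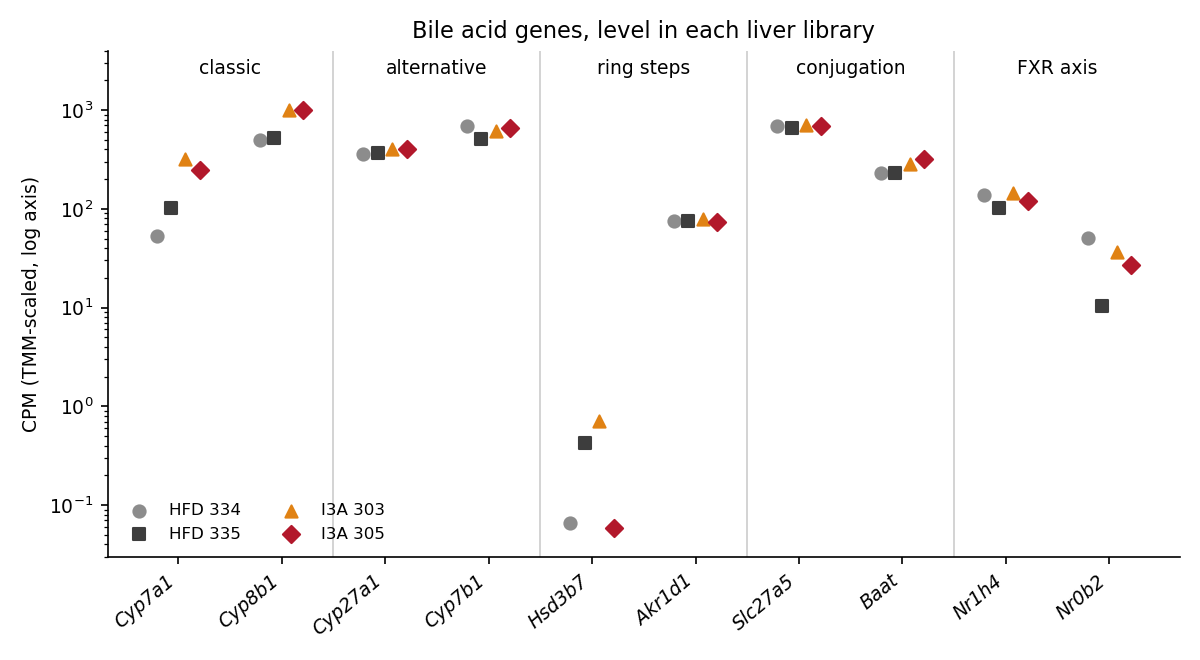
Level of the 10 members in each of the 4 liver libraries, in TMM-scaled CPM on a log axis, with 1 symbol per library and members ordered by role. Cyp7a1 and Cyp8b1 are the members with a wide gap between HFD (grey) and I3A (colour) symbols, Nr0b2 spreads most within HFD among the 9 tested members, and Hsd3b7 lies under 1 CPM throughout.

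Sequences upstream of Cyp8b1 and Nr0b2 are shown because the first had the smallest p among the members and the second encodes the repressor known to act on it through LRH-1 and HNF4. RefSeq promoter entries (GRCm38.p6) were found for 6 of the 10 members, and each sequence below is the 250 bases before the annotated start, 5′ to 3′ on the gene's strand. Cyp8b1 covers chr9:121916306-121916555 on the minus strand and Nr0b2 chr4:133553126-133553375 on the plus strand. Capitals mark matches to 3 motifs searched on both strands: CAAGGNCA, the core that LRH-1 is known to bind, CAAAGNCCA, a core of HNF4 sites, and TATAAA, the TATA box.
Cyp8b1: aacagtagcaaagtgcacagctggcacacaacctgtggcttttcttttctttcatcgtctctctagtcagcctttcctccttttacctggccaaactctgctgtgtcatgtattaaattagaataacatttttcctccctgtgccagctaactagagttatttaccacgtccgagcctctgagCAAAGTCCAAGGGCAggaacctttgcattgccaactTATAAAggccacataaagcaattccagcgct
Nr0b2: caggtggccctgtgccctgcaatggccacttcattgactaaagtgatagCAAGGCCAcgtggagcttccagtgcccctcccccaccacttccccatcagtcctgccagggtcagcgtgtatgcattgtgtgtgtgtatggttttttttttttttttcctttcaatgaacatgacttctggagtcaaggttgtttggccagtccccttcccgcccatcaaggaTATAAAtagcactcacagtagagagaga
In Cyp8b1 the HNF4 core lay 67 to 59 bases before the start and overlapped the LRH-1 core at 60 to 53, so that the capitals run together. In Nr0b2 the LRH-1 core lay 201 to 194 bases before the start. CAAGGNCA occurred in the same window of 5.53% of 32851 promoters and in these 2 of the 6 member promoters. CAAAGNCCA occurred in 1.7% of promoters and, among the 6, in Cyp8b1 alone, and TATAAA in 12.4% and in the same 2 members. The FXR consensus, an inverted repeat of AGGTCA with any 1 base between the repeats, occurred in 0.00609% of promoters (2 of 32851) and in 0 of the 6. An exact match this rare cannot show whether these genes lack FXR sites. Matches are letters in a window and were not measured as binding sites here.

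The alternative pathway lay close to level. Cyp27a1 (chromosome 1, 74713574 to 74737892, plus strand) measured 361 and 372 CPM in HFD 334 and HFD 335 and 407 and 400 CPM in I3A 303 and I3A 305. These groups did not overlap either, but the fitted difference was 1.10-fold with a 95% interval of 0.933 to 1.30 (edgeR adjusted p = 0.578). Cyp7b1 (chromosome 3, 18071950 to 18243338, minus strand) measured 693 CPM in HFD 334 and 506 CPM in HFD 335, and both I3A libraries, at 617 and 654 CPM, fell between them. Its difference was 1.06-fold (95% interval 0.789 to 1.42; edgeR adjusted p = 0.867). The sign of the Cyp7b1 value turned without HFD 335 (log2 fold change -0.13) and with scaling by library totals (-0.0064).

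The balance of the pathways was set out within each library on a per-length scale, CPM per kilobase of exon, where the ratio of genes does not depend on how libraries are scaled. Cyp7a1 stood at 0.0397 of the Cyp7b1 level in HFD 334 and 0.104 in HFD 335, and at 0.270 in I3A 303 and 0.199 in I3A 305. Cyp8b1 stood at 0.796 and 1.15 times the Cyp7b1 level in the HFD libraries and at 1.79 and 1.70 times in I3A 303 and I3A 305. Both ratios were higher in each I3A library than in each HFD library. Taking the mean log2 level of Cyp7a1 and Cyp8b1 minus that of Cyp27a1 and Cyp7b1, the libraries gave -2.02 (HFD 334), -1.31 (HFD 335), -0.22 (I3A 303) and -0.43 (I3A 305). The difference of group means was 1.34 on the log2 scale, larger than the gap of 0.71 between the HFD libraries and of 0.21 between the I3A libraries. No p is given for this score, since the genes were chosen with results known.

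Of the summed per-length level of these 4 hydroxylases, the classic pair took 35.5% in HFD 334 and 42.0% in HFD 335, then 55.4% in I3A 303 and 54.1% in I3A 305. Cyp8b1 made up most of that share, with 33.8% and 38.6% in the HFD libraries and 48.2% and 48.4% in the I3A libraries. Cyp7a1 took 1.69% and 3.47%, then 7.27% and 5.67%. The sum itself was 753 and 698 CPM per kilobase in HFD and 1059 and 1057 CPM per kilobase in I3A libraries. Within the classic pathway, Cyp8b1 stood 20.0 and 11.1 times above Cyp7a1 in HFD 334 and HFD 335 and 6.63 and 8.54 times above it in I3A 303 and I3A 305. That ratio was lower in both I3A libraries, by 0.99 on the log2 scale between group means, beside gaps of 0.85 within HFD and 0.37 within I3A. Without HFD 334 the difference was -0.56 and without HFD 335 it was -1.41.

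**Figure D2:**
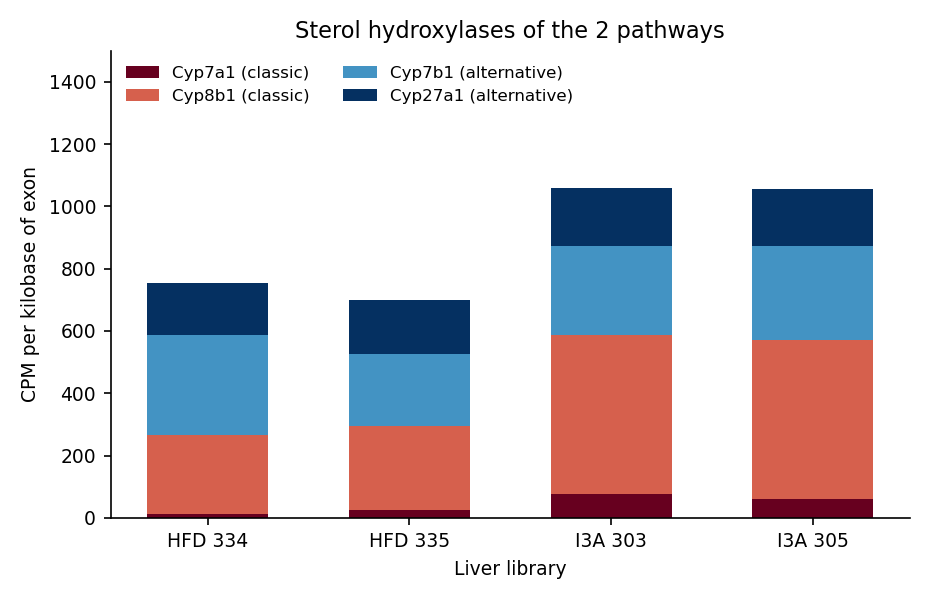
Stacked per-length levels (CPM per kilobase of exon) of the 4 sterol hydroxylases in each liver library, with the classic pathway in reds and the alternative pathway in blues. The stacks reach 753 and 698 in HFD and 1059 and 1057 in I3A libraries, and the red part makes up 35.5% and 42.0% of the stack in HFD and 55.4% and 54.1% in I3A libraries.

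The ring step shared by both pathways could be read for 1 of its enzymes. Akr1d1, the reductase that bends the ring (chromosome 6, 37530173 to 37568815, plus strand), measured 76.1 and 74.8 CPM in HFD 334 and HFD 335 and 78.1 and 74.0 CPM in I3A 303 and I3A 305. The groups overlapped, and the 95% interval of the difference ran from 0.859-fold to 1.18-fold (edgeR adjusted p = 0.974). Its sign turned without HFD 335, without I3A 303 and with library totals, always within 0.08 of 0 on the log2 scale.

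Hsd3b7, the dehydrogenase before that step (chromosome 7, 127800604 to 127803802, plus strand), had 1 count in HFD 334, 7 in HFD 335, 11 in I3A 303 and 1 in I3A 305. It was the member that did not reach the test. In GENCODE release M21, also on GRCm38, 2746 of its 2769 exon bases (99.2%) also lie in exons of other genes, leaving 23 bases of its own. These genes are Gm49388, which runs along the same strand from 127785608 to 127803802 and was listed at 0 counts in every library, and 9430064I24Rik on the opposite strand, with 7, 1, 2 and 0 counts in HFD 334, HFD 335, I3A 303 and I3A 305. No source states how reads lying in exons of several genes were counted, so the Hsd3b7 counts give no level for the enzyme. Exons of the other 9 members overlapped no other gene.

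Of the conjugation enzymes, Baat differed more than Slc27a5. Baat, which joins bile acids to taurine or glycine (chromosome 4, 49489422 to 49506557, minus strand), measured 230 and 229 CPM in HFD 334 and HFD 335 and 284 and 324 CPM in I3A 303 and I3A 305. The groups did not overlap, and the fitted difference was 1.32-fold with a 95% interval of 1.10-fold to 1.59-fold, not past adjustment (edgeR adjusted p = 0.278; DESeq2 adjusted p = 0.0942). Slc27a5, the ligase that supplies it with bile acid coenzyme A thioesters (chromosome 7, 12988346 to 12998192, minus strand), measured 685 and 665 CPM in HFD and 707 and 697 CPM in I3A libraries, a 1.04-fold difference (95% interval 0.871 to 1.24; edgeR adjusted p = 0.847). The Slc27a5 value turned to -0.033 on the log2 scale with library totals. Per length, Baat stood at 0.422 and 0.433 of Slc27a5 in HFD 334 and HFD 335 and at 0.505 and 0.583 in I3A 303 and I3A 305, which did not overlap.

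**Figure D3:**
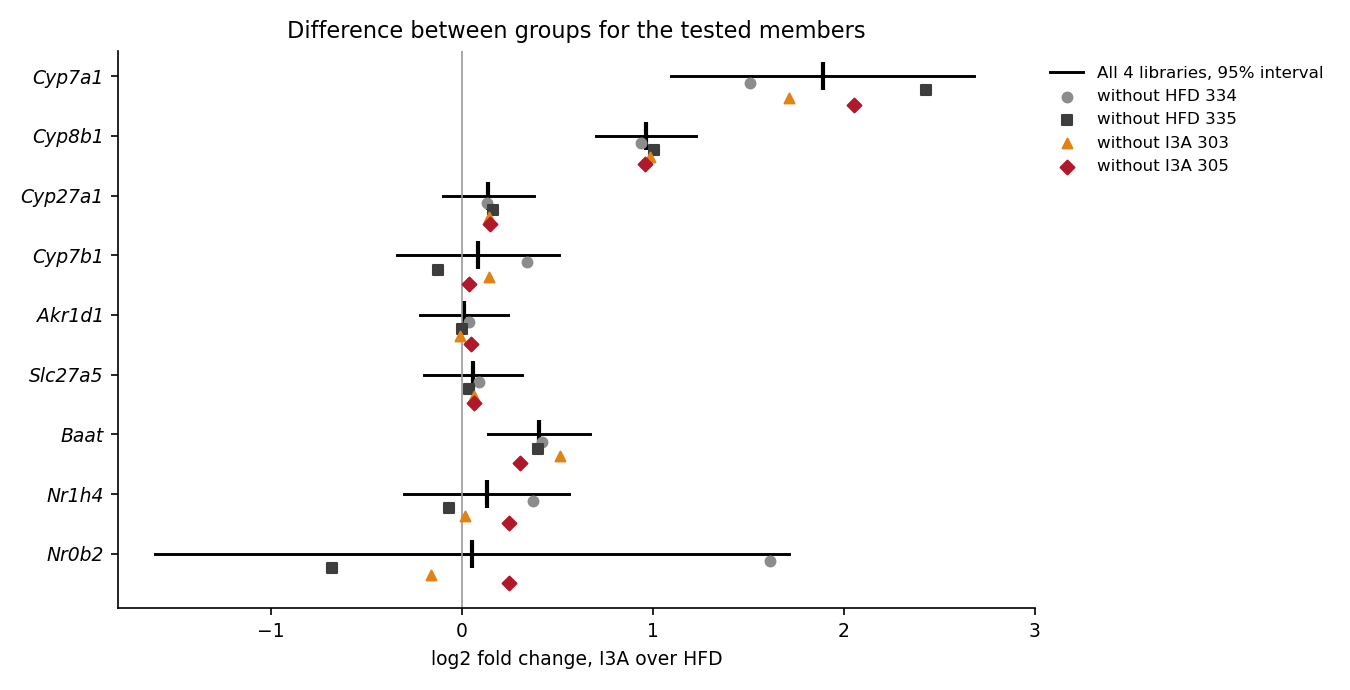
Log2 fold change of I3A over HFD for the 9 tested members, with the estimate from all 4 libraries as a vertical tick on its 95% interval and the estimate without each library as a symbol below it. The intervals of Cyp7a1, Cyp8b1 and Baat lie above 0 before adjustment, and the symbols of Nr0b2 run from -0.68 to 1.61.

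For the receptor side of the loop the groups overlapped, and the HFD libraries lay far apart from each other in Nr0b2. Nr1h4, which encodes FXR (chromosome 10, 89454234 to 89533585, minus strand), measured 138 CPM in HFD 334, 103 CPM in HFD 335, 143 CPM in I3A 303 and 121 CPM in I3A 305. The groups overlapped, with a 1.09-fold difference (95% interval 0.811 to 1.48; edgeR adjusted p = 0.789) whose sign turned without HFD 335 (log2 fold change -0.071). Nr0b2, which encodes SHP (chromosome 4, 133553376 to 133556536, plus strand), measured 50.5 CPM in HFD 334 and 10.4 CPM in HFD 335, a 4.87-fold gap inside 1 group. Both I3A libraries, at 36.2 CPM (I3A 303) and 26.8 CPM (I3A 305), fell between them.

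The fitted Nr0b2 difference was 1.04-fold, and its 95% interval of 0.328 to 3.27 leaves room for a sizeable difference in either direction (edgeR adjusted p = 0.983). Which HFD library was kept decided the direction. Without HFD 334 the log2 fold change was 1.61, and without HFD 335, the library with muscle and pancreas transcripts, it was -0.68. Each of these fits holds a single HFD library, so the gap between the HFD libraries is not part of its spread. The sign of the Nr0b2 value also turned without I3A 303 (-0.16) and with library totals (-0.028). Inside HFD the library higher in Nr0b2 was lower in Cyp7a1, whereas inside I3A the library I3A 303 was higher in both.

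Ordered by per-length level, Cyp7b1 (320 CPM per kilobase), Slc27a5 (281) and Cyp8b1 (255) led in HFD 334 and Cyp8b1 (510 and 512) led in both I3A libraries. Cyp27a1 came 4th and Baat 5th in every library. Cyp7a1 came 9th in HFD 334 and 8th in HFD 335, at 12.7 and 24.3 CPM per kilobase, and 6th in both I3A libraries, at 77.0 and 59.9 CPM per kilobase. There it stood beside Nr1h4, which measured 60.1 and 44.6 CPM per kilobase in HFD and 62.2 and 52.3 in I3A libraries. Neighbours in that order did not always separate. The HFD values of Cyp7b1 (320 and 234 CPM per kilobase) lay on either side of those of Slc27a5 and Cyp8b1, its I3A values overlapped those of Slc27a5, and the I3A values of Cyp7a1 overlapped those of Nr1h4. Among all tested genes Cyp8b1 lay at the 98.6th to 99.2nd percentile and Cyp7a1 at the 80.5th to 95.6th.

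Other genes of bile acid metabolism were read in 3 lists, and 0 of their 35 tested genes passed the edgeR adjusted test. Of 13 further synthesis enzymes 12 were tested, with a median log2 fold change of -0.080 beside -0.010 over all tested genes, and 1 was lower at an unadjusted p under 0.05 (background in that direction 6.24%). It was Akr1c6, a hydroxysteroid dehydrogenase, at 905 and 988 CPM in HFD and 787 and 690 CPM in I3A libraries (log2 fold change -0.36 ± 0.12, SE; edgeR adjusted p = 0.340). Akr1c6 has close relatives that share sequence, so its counts are uncertain to that extent. Cyp2c70, which makes the muricholic acids of mice, measured 229, 145, 107 and 158 CPM in HFD 334, HFD 335, I3A 303 and I3A 305, and its groups overlapped. Cyp2a12, which hydroxylates returning secondary bile acids again, measured 666 and 520 CPM in HFD and 493 and 459 CPM in I3A libraries (edgeR adjusted p = 0.438). Ch25h was too low to test, at 0.0581 to 0.193 CPM.

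All 14 genes chosen as regulators of Cyp7a1 and Cyp8b1 were tested, and their median was -0.039, with 2 higher and 2 lower at an unadjusted p under 0.05, beside 6.66% and 6.24% of all tested genes. Ppargc1a, a coactivator, measured 6.83 and 9.10 CPM in HFD and 16.9 and 16.5 CPM in I3A libraries, a 2.09-fold difference (edgeR adjusted p = 0.200; DESeq2 adjusted p = 0.0100). Klb, the co-receptor through which the gut hormone FGF15 reaches the hepatocyte, measured 28.0 and 24.5 CPM in HFD and 33.4 and 37.2 CPM in I3A libraries (edgeR adjusted p = 0.303). Foxo1, a factor held back by insulin, measured 56.7 and 49.6 CPM in HFD and 37.8 and 42.0 CPM in I3A libraries (edgeR adjusted p = 0.300). The receptors whose motif cores were searched above lay level: Nr5a2 had a log2 fold change of 0.0029 (95% interval -0.23 to 0.24) and Hnf4a of 0.11 (-0.23 to 0.45).

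Of 12 genes listed as targets of FXR 9 were tested, with a median of 0.11. At an unadjusted p under 0.05 stood 0 higher and 2 lower, beside 6.66% and 6.24% of all tested genes. The list was not split by whether FXR raises or lowers a gene, so its median and counts give no direction for FXR. Abcb11, the bile salt export pump that FXR induces, measured 484 and 403 CPM in HFD 334 and HFD 335 and 315 and 297 CPM in I3A 303 and I3A 305 (log2 fold change -0.54 ± 0.13, SE; edgeR adjusted p = 0.245; DESeq2 adjusted p = 0.0130). Osgin1 measured 162 and 111 CPM in HFD and 89.1 and 95.7 CPM in I3A libraries (edgeR adjusted p = 0.332). Slc10a1, the uptake carrier of conjugated bile acids, measured 584 and 502 CPM in HFD and 693 and 611 CPM in I3A libraries (edgeR adjusted p = 0.460). The groups did not overlap for 7 of the 9 tested targets, 4 higher and 3 lower with I3A, beside 23.1% and 22.5% of all tested genes. The 4 were Slc10a1, Apoa1, Apoc2 and Scarb1 and the 3 were Abcb11, Osgin1 and Apoc3 (Apoa1, Apoc2, Scarb1 and Apoc3 named after their values were seen), whereas for Nr0b2 the I3A libraries lay between the HFD libraries. By the same rule of no overlap, the 12 tested synthesis enzymes held 1 higher and 2 lower, and the 14 regulators 2 higher and 4 lower. Slc51a, Slc51b and Fgf15 were too low to test, and Fgf15, a hormone made in the ileum, had 0 counts in every library, which allows up to 0.195 CPM.

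**Figure D4:**
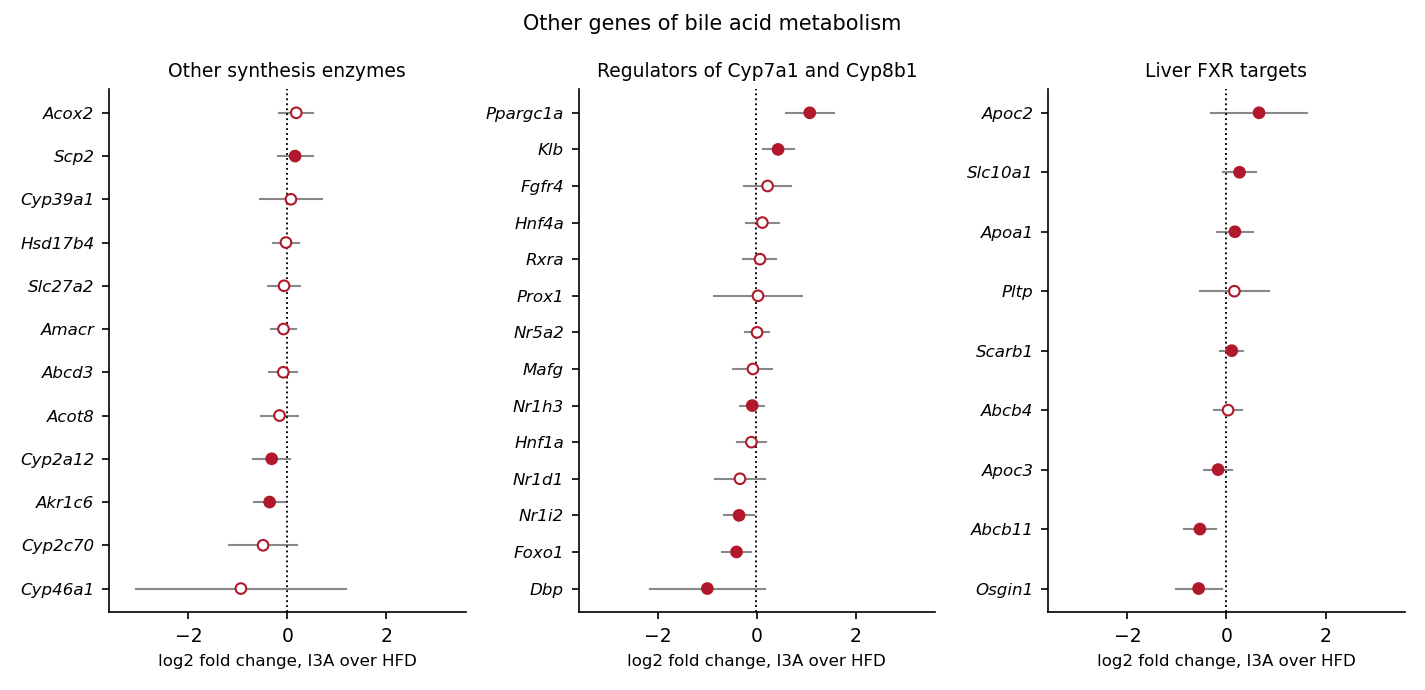
Log2 fold change of I3A over HFD with 95% intervals for the tested genes of 3 lists of bile acid metabolism, with filled symbols where the groups do not overlap and a dotted line at the median of all tested genes (-0.010). Ppargc1a is highest among the regulators, and Abcb11 and Osgin1 lie lowest among the FXR targets.

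Likeness to Cyp7a1 and Cyp8b1 was measured as the root mean square difference of log2 CPM over the 4 libraries, each gene centred on its own mean, among 7326 genes whose mean over the 4 libraries reached 10 CPM. Closest to Cyp7a1 were Dhcr7 (difference 0.319) and Hmgcs1 (0.323), enzymes of cholesterol synthesis. Dhcr7 measured 16.9 and 29.4 CPM in HFD 334 and HFD 335 and 66.7 and 47.1 CPM in I3A 303 and I3A 305, the same order of libraries as Cyp7a1. Closest to Cyp8b1 were Dhtkd1 (0.0320), Serpinb9 (0.0347) and Prob1 (0.0362). Serpinb9, at 6.90 and 7.52 CPM in HFD and 13.3 and 13.8 CPM in I3A libraries, reached that mean only through the I3A libraries. Dhtkd1, of lysine breakdown, measured 40.2, 43.0, 77.7 and 82.8 CPM in HFD 334, HFD 335, I3A 303 and I3A 305. With 4 libraries such likeness is a description, and its values share the libraries and their scaling.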

How the data were processed

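RNA was extracted from liver with Trizol and made into libraries with a NEBNext Ultra kit, per the labels' protocols. The authors deposited raw counts per gene, made with HISAT2 and featureCounts 1.5.0-p3 on GRCm38, per the submitters' processing notes. The annotation release, strand setting and treatment of shared reads are not stated. Gene lengths and positions are those of the deposited table.

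Libraries were grouped by title, 2 against 2. Counts were fitted with edgeR 4.0.16 in R 4.3.3 (filterByExpr with a minimum of 10 counts, TMM, group as the single term, quasi-likelihood test, 2-sided, Benjamini-Hochberg adjustment over 13403 genes at 0.05). CPM used TMM-scaled library sizes, and marker sums used library totals. For 2 against 2 an exact permutation test of 1 value cannot go below p = 0.333. Within HFD and I3A the chi-squares of counts, per degree of freedom, were 29.6 and 26.9, above sampling noise, and each library counted as 1 replicate.

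Members and lists were chosen with earlier results of these data known. All 10 members are named. The 3 genes of each list with the smallest p are named, and the 3 closest in profile to Cyp7a1 and to Cyp8b1, apart from predicted and pseudogene symbols; 1 gene that this would name is left out. Nr5a2, Hnf4a and untested genes were added after their values were seen. Intervals are unadjusted, at 95%. Alternatives were RLE, upper-quartile and library total scaling, no filter, at least 10 counts in every library, DESeq2 1.42.0, limma-voom (limma 3.58.1), a robust fit and leaving out each library. The tests were tried on simulated data. The limit for 0 counts is 3 counts and covers counting error only.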

Additional observations from a re-analysis of the deposited data

How the results depend on the processing

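With 2 libraries a group, tests of a gene borrow their spread from other genes. Cyp7a1, Cyp8b1, Cyp27a1 and Baat kept their direction in all 12 alternatives. Past an adjusted p of 0.05 stood 0 members and 0 genes in the fit as described, 2 members and 619 genes with no filter in edgeR, and 2 members and 335 genes in DESeq2. With single libraries left out there were 0 to 2 members and 0 to 343 genes. The 619 calls came with many more low-count genes in the fit; the cause was not tested. With no filter, and in DESeq2, 1 gene passed among the regulators and 1 among the FXR targets. Without the filter, the edgeR adjusted p was 3.00e-05 for Cyp7a1 and 3.60e-04 for Cyp8b1. Scaling by library totals moved the median of all genes from -0.010 to -0.10 and turned the log2 fold changes of Cyp7b1 (-0.0064), Akr1d1 (-0.079), Slc27a5 (-0.033) and Nr0b2 (-0.028). With single libraries left out, values ranged from -0.13 to 0.34 for Cyp7b1, -0.012 to 0.046 for Akr1d1, -0.071 to 0.37 for Nr1h4 and -0.68 to 1.61 for Nr0b2. The classic minus alternative difference of 1.34 was 0.94 from summed levels and 1.85 for Cyp7a1 against Cyp7b1 alone, which hold other weights or genes by construction, and 0.98 to 1.69 with single libraries left out. The Cyp8b1 to Cyp7a1 difference ranged from -1.41 to -0.56. No paired analysis was possible because the replicate numbers are not shared between the groups.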

Other observations

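Slc10a2, the sodium-dependent bile acid carrier known from ileum and bile duct cells, had 226, 284, 123 and 345 counts in HFD 334, HFD 335, I3A 303 and I3A 305 (14.7, 17.2, 7.91 and 20.0 CPM), so the groups overlapped and I3A 303 was lowest. The ileal bile acid binding protein Fabp6 had 0 counts in every library. The bile duct markers Krt19 and Epcam were lowest in I3A 303 as well, at 0.515 and 1.03 CPM, beside 1.04 to 1.88 CPM and 1.37 to 2.61 CPM in the other libraries. These genes were singled out after their values were seen, and bile duct content as a part of the Slc10a2 order was not tested.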
